A study of Homo sapiens with 12 samples.

Results

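The ERBB receptors and their EGF-like ligands were followed in MCF10A cells, a non-tumorigenic human mammary epithelial line that grows without limit, before and after ionizing radiation (RT). The 10 genes, chosen by symbol, were 3 receptors (EGFR, ERBB2 and ERBB3) and 7 ligands (AREG, EREG, HBEGF, TGFA, BTC, EPGN and NRG1), out of 60675 genes in the table. All 10 passed the filter on low values, which kept 15303 genes. RNA came from 12 libraries in 6 groups of 2. The genotypes were wild-type (WT) and knockouts of each interleukin-1 receptor chain (IL1R1-KO, IL1RAP-KO), either untreated or given 20 Gy once, and RT is added to the name of an irradiated group. IL1R1 is the chain of the interleukin-1 receptor that binds the cytokine, and IL1RAP joins it for signaling. The KO cells were made with CRISPR/Cas9 from a lentiviral vector and selected with puromycin. The guide behind each RNA library and the time from irradiation to RNA extraction are not given in the sources used here. All groups grew in medium with 20 ng/ml EGF, 5% horse serum, insulin, hydrocortisone and cholera toxin, so a ligand of EGFR was supplied to every library.

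ERBB receptors are tyrosine kinases that pair with each other once a ligand is bound and pass the signal to the RAS-ERK and PI3K-AKT pathways. EGFR binds amphiregulin (AREG), epiregulin (EREG), heparin-binding EGF-like growth factor (HBEGF), TGF-alpha (TGFA), betacellulin (BTC), epigen (EPGN) and EGF itself. ERBB3 binds neuregulins such as NRG1 and has little kinase activity of its own, and ERBB2 has no known ligand and serves as a partner. The ligands are made as membrane proteins and are released by ADAM proteases. In mammary epithelium AREG is known as the ligand through which estrogen drives growth of the ducts, and MCF10A cells are known to depend on EGF for growth.

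Values are TPM (reads divided by gene length and set to one total per library), rescaled between libraries and called scaled TPM. Because TPM are per length, levels of different genes can be compared. Differences are on the scale of log2(scaled TPM + 1), which understates the change of low genes, and are given with the standard error (SE) of the fit over all 12 libraries. Adjusted p-values are from limma, with Benjamini-Hochberg adjustment over all 15303 genes tested. A call needed both an adjusted p under 0.05 and a change of more than 2-fold. Sequencing depth is unknown, and counting error therefore has no interval here. The p-values rest on the spread between the 2 libraries of a group, which the study calls biological replicates. For each gene this spread was pooled over all 6 groups and drawn by limma toward a trend over genes. A group whose libraries lie further apart therefore has no wider SE of its own.

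Some facts of the whole series bear on these values. IL1RAP mRNA was 18 and 20.7 scaled TPM in the untreated WT libraries and 4.39 and 4.95 in untreated IL1RAP-KO. IL1R1 mRNA was 10.6 and 9.44 in WT and 11.0 and 7.79 in the IL1R1-KO-labelled cells, which overlapped, so the mRNA does not check that label. The paper reports a check of another kind, in which its IL1R1-KO and IL1RAP-KO cells resisted loss of the NF-κB inhibitor IκBα after interleukin-1. Whether these libraries came from the same cells is not stated in the sources used here. Transcripts of mitochondrial DNA took 18.3% to 21.1% of the TPM in untreated libraries and 36.9% to 57% after RT, with the highest share in IL1RAP-KO RT replicate 2. For IL1RAP-KO RT replicate 1 and IL1R1-KO replicate 2 the highest correlation was with a library outside the group (r = 0.981 and 0.988, against 0.974 and 0.985 with the partner). All 8 markers of mammary basal epithelium were at 1 TPM or more in every library. Of 6 luminal hormone-sensing markers, GATA3, KRT8 and KRT18 were too, and the hormone receptors ESR1 and PGR were under 1 TPM in all 12. The summed basal markers lay at 3680 to 4580 scaled TPM untreated and at 1920 to 3120 after RT, and the summed luminal markers at 435 to 484 and 244 to 289. Of 6 leukocyte, 6 fibroblast and 4 endothelial markers, 5, 4 and 2 were under 1 TPM in every library. The summed leukocyte markers lay at 5.97 to 20.2 scaled TPM untreated and at 26.9 to 76.7 after RT, carried by CD14, and the summed fibroblast markers at 17.8 to 22.9 and 42.8 to 90.9, carried by DCN. The endothelial sum lay at 2.96 to 4.88 and 6.55 to 9.83. The part of these shifts in the results was not tested. In bulk RNA, a change in the number of cells of a kind and a change in RNA per cell cannot be told apart.

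In GRCh38 (GENCODE v44), HBEGF is on chromosome 5 (140332843 to 140346603, minus strand), TGFA on chromosome 2 (70447284 to 70554193, minus strand), NRG1 on chromosome 8 (31639222 to 32855666, plus strand), EGFR on chromosome 7 (55019017 to 55211628, plus strand), ERBB2 on chromosome 17 (39687914 to 39730426, plus strand) and ERBB3 on chromosome 12 (56076799 to 56103505, plus strand).

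AREG was the most abundant of the 10 mRNAs in every group. In untreated WT cells the order of mean levels was AREG (430 scaled TPM), EPGN (103), EGFR (82.8), ERBB2 (22.3), TGFA (18.1), HBEGF (12.4), ERBB3 (5.07), EREG (4.0), BTC (2.22) and NRG1 (1.21), and no neighbours in this order overlapped between their libraries. The order of means was the same in both untreated KO lines. There, ERBB2 overlapped TGFA and BTC overlapped NRG1 in the IL1R1-KO-labelled cells. After RT, HBEGF moved ahead of ERBB2 and TGFA in all 3 genotypes. EREG moved ahead of ERBB3 in WT RT (8.01 and 11.7 against 7.4 and 4.23) without overlap. EGFR and EPGN changed places in WT RT, but their libraries overlapped. ERBB2 and TGFA overlapped in WT RT, and ERBB3 and EREG overlapped in both KO lines after RT.

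**Figure D1:**
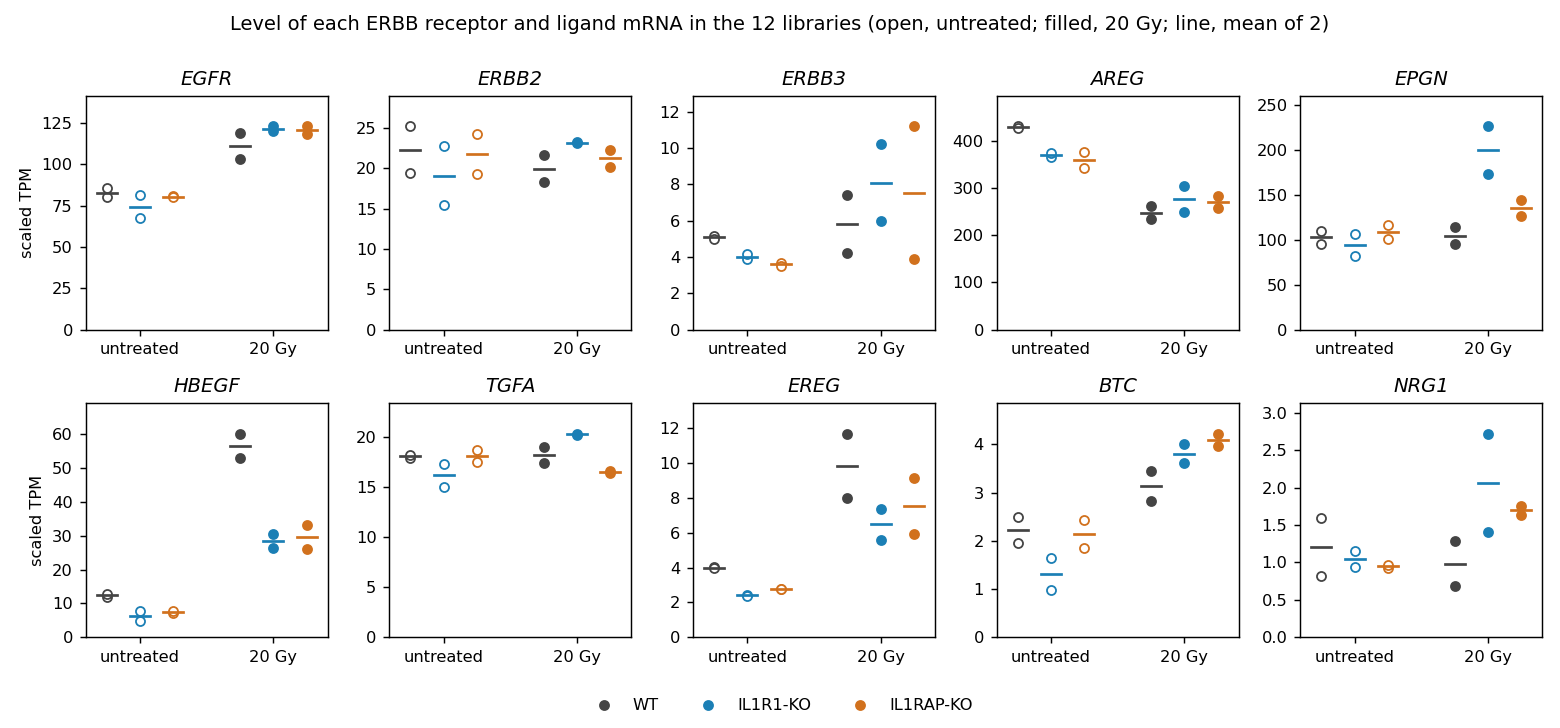
Scaled TPM (vertical axis, linear, from 0, on a scale of its own for each gene) of the 10 genes in the 12 libraries, untreated on the left and after 20 Gy on the right of each panel; points are libraries and lines are means of 2. The 6 irradiated HBEGF points (26.0 to 60.1) lie above all 6 untreated ones (4.75 to 12.8), while the ERBB2 and TGFA points stay in narrow bands.

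AREG, EREG, EPGN and BTC lie next to each other on chromosome 4. In GRCh38 (GENCODE v44) EPGN runs from 74308470 to 74316789, EREG from 74365145 to 74388749 and AREG from 74445136 to 74455005, all on the plus strand, and BTC from 74744759 to 74794523 on the minus strand. The gaps are 48.4, 56.4 and 290 kb, no other protein-coding gene lies between them, and together they span 486 kb. The 250 bases before the start are shown for HBEGF, which rose most with RT, and for the 4 genes of this group, whose responses to RT differed. They are from RefSeq (GRCh38.p14), 5′ to 3′ on the strand of the gene.
HBEGF, chr5:140346604-140346853, minus strand: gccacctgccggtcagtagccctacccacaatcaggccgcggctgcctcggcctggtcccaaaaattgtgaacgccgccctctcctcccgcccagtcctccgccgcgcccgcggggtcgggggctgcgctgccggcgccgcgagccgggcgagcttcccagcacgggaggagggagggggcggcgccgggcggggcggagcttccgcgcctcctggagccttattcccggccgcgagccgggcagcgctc
EREG, chr4:74364895-74365144, plus strand: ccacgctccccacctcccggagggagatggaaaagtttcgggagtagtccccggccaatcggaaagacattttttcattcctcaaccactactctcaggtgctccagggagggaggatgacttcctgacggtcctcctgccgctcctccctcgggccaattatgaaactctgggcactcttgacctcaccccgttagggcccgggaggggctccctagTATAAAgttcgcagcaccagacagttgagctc
AREG, chr4:74444886-74445135, plus strand: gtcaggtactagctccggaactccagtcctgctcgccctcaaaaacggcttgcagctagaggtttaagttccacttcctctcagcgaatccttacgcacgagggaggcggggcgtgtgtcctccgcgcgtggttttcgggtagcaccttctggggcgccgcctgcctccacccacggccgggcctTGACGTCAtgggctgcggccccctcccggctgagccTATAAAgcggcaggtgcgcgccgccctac
EPGN, chr4:74308220-74308469, plus strand: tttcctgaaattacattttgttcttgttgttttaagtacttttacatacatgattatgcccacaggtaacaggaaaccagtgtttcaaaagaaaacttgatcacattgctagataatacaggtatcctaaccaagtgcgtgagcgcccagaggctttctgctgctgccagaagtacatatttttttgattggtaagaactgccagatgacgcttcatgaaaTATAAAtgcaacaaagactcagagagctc
BTC, chr4:74794524-74794773, minus strand: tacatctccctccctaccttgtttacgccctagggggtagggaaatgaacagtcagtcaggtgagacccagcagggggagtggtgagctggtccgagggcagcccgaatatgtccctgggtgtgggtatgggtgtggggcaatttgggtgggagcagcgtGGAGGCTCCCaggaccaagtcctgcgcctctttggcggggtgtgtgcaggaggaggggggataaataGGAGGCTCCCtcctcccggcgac
Capitals mark matches to the AP-1 motif with letters TGANTCA, the cAMP response element with letters TGACGTCA, the TATA box with letters TATAAA, and the NF-κB consensus by its usual letters, searched on both strands. EREG, AREG and EPGN each hold TATAAA on the gene strand, at 32 to 27 bases before the start in EREG and at 29 to 24 in AREG and EPGN. These letters stood on either strand in 10.7% of 35114 RefSeq promoters, anywhere in the same window. AREG also holds TGACGTCA at 65 to 58 bases before its start, a motif in 1.65% of promoters. HBEGF holds none of these motifs. BTC holds the NF-κB consensus on the other strand at 90 to 81 and at 23 to 14 bases before its start, and the other windows shown do not. That consensus stood in 9.96% of promoters and AP-1 letters, in none of these windows, in 6.57%. The NF-κB letters were first searched in a looser form, with only the outer letters fixed, which matched 54.4% of all promoters, among them those of HBEGF (73 to 64 bases before the start), AREG (113 to 104 and 98 to 89) and BTC. The stricter consensus was chosen after those matches were seen, so neither the loose matches nor their loss is evidence about the factor. A match is a description of letters, and no binding was measured.

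Irradiation raised HBEGF and EREG in all 3 genotypes. Of the 10 genes, 2 were called in WT, 4 in IL1R1-KO-labelled cells and 2 in IL1RAP-KO, all higher. Over all genes tested, 13.2%, 16.3% and 17.4% were called in either direction in these comparisons and 7.05%, 8.16% and 8.21% were called higher. At an adjusted p under 0.05 with no fold threshold, 4, 7 and 5 of the 10 passed, where 43.4%, 48.2% and 50.1% of all genes did. The median log2 difference of the 10 genes was 0.07, 0.76 and 0.53, beside 0.00, 0.01 and 0.00 for all genes tested.

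**Figure D2:**
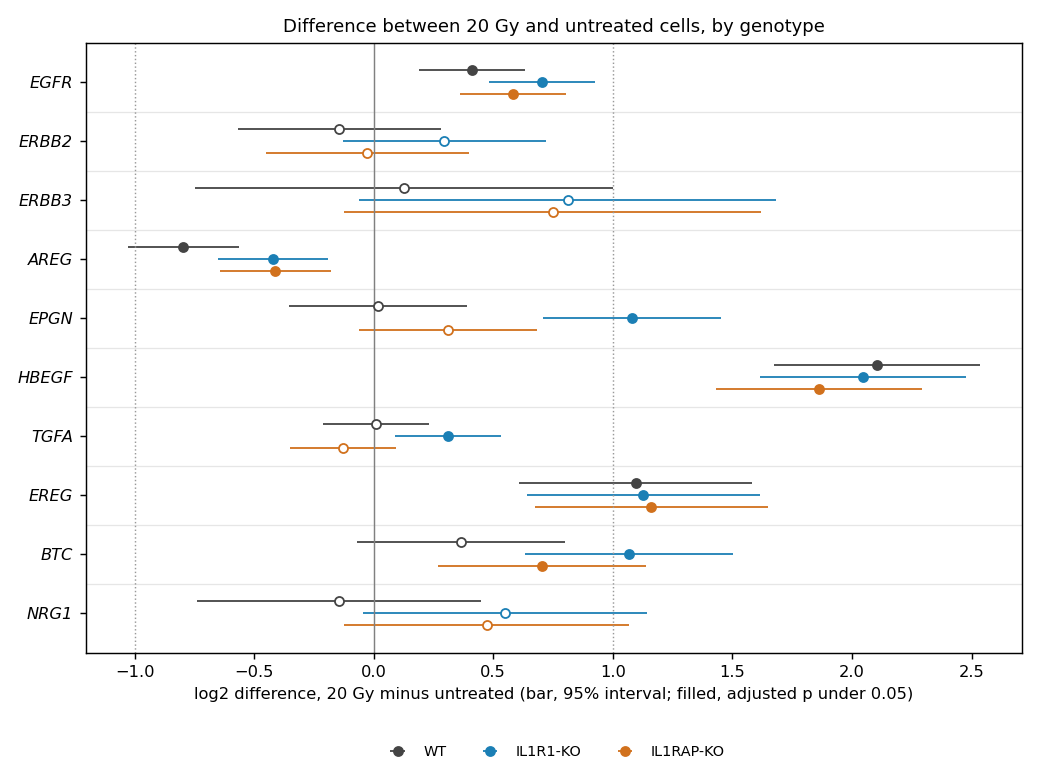
Log2 difference between 20 Gy and untreated cells (horizontal axis) for the 10 genes in WT cells, IL1R1-KO-labelled cells and IL1RAP-KO cells; bars are 95% intervals, filled points have an adjusted p under 0.05 from limma and dotted lines mark 2-fold. HBEGF lies near 2 in all 3 genotypes and AREG lies below 0, from -0.80 to -0.41, and EPGN lies beyond 1 in the IL1R1-KO-labelled cells, at 1.08.

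HBEGF, a ligand that binds both EGFR and heparan sulfate, had the widest range of the 10 genes. Its levels were 11.9 and 12.8 scaled TPM in WT, 7.8 and 4.75 in IL1R1-KO-labelled cells, and 7.04 and 7.73 in IL1RAP-KO. After RT they were 52.9 and 60.1 in WT, 26.3 and 30.6 in IL1R1-KO-labelled cells, and 26.0 and 33.2 in IL1RAP-KO. Every irradiated library was above every untreated one, and the WT libraries were the highest at either treatment. The log2 difference with RT was 2.10 in WT, 2.05 in IL1R1-KO-labelled cells and 1.86 in IL1RAP-KO (SE 0.19 for each), or 4.3-fold, 4.13-fold and 3.63-fold on this scale. Adjusted p-values from limma were 2.6e-05, 2.1e-05 and 4e-05, and HBEGF was called in all 3 genotypes under every alternative processing tried.

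After RT, HBEGF was lower in both KO lines than in WT RT in the reported fit, and no library of a KO line reached the lower WT RT library. The log2 differences were -0.97 in IL1R1-KO-labelled cells and -0.92 in IL1RAP-KO (SE 0.19, adjusted p = 0.011 and 0.016 from limma), which fell short of 2-fold. They passed it at -1.08 without IL1R1-KO RT replicate 2, and at -1.09 without IL1RAP-KO RT replicate 2. The adjusted p from limma missed the threshold in other fits. For IL1R1-KO-labelled cells it was 0.05, 0.064 and 0.094 with WT RT replicate 1, WT RT replicate 2 or IL1R1-KO RT replicate 1 left out. For IL1RAP-KO it was 0.067 and 0.073 with either WT RT library left out and 0.16 with the compared libraries alone. The differences in these fits lay between -1.07 and -0.83. In untreated cells the differences were -0.91 and -0.67 with adjusted p = 0.25 and 0.77 from limma, where few genes passed at all. The response to RT in the KO lines differed from that in WT by -0.06 (95% interval -0.67 to 0.55) and -0.24 (-0.85 to 0.37), with adjusted p = 0.95 and 0.68 from limma. These intervals still hold a difference of over 1.5-fold for either KO line.

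EREG, the ligand next to AREG on chromosome 4, was low in untreated cells and rose with RT. Its levels were 4.01 and 3.99 scaled TPM in WT, 2.42 and 2.39 in IL1R1-KO-labelled cells, and 2.75 and 2.76 in IL1RAP-KO. After RT they were 8.01 and 11.7, 7.37 and 5.61, and 5.95 and 9.14 in the same order. The irradiated libraries lay above the untreated ones in each genotype, with a wider spread between partners after RT. The log2 difference was 1.09 in WT, 1.13 in IL1R1-KO-labelled cells and 1.16 in IL1RAP-KO (SE 0.22, adjusted p = 0.0028, 0.002 and 0.0016 from limma). It fell short of 2-fold in WT at 0.85 without WT RT replicate 2, in IL1R1-KO-labelled cells at 0.96 if IL1R1-KO RT replicate 1 was left out, and in IL1RAP-KO cells at 0.89 without IL1RAP-KO RT replicate 2. With TPM as deposited it was 0.87 in WT and 0.86 in IL1RAP-KO. No difference between KO and WT passed for EREG. After RT these were -0.52 (95% interval -1.01 to -0.04, adjusted p = 0.16 from limma) and -0.35 (-0.83 to 0.14, adjusted p = 0.31 from limma).

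AREG, the most abundant ligand, fell with RT by less than 2-fold in the reported fit. Its levels were 431 and 428 scaled TPM in WT, 366 and 374 in IL1R1-KO-labelled cells, and 343 and 376 in IL1RAP-KO. After RT they were 261 and 234, 250 and 304, and 283 and 257. No irradiated library reached the lowest untreated one. The log2 difference was -0.80 in WT, -0.42 in IL1R1-KO-labelled cells and -0.41 in IL1RAP-KO (SE 0.10, adjusted p = 0.00021, 0.0073 and 0.0081 from limma). With TPM as deposited the fall in WT was over 2-fold, at -1.06. Under nuclear protein-coding scaling the fall was lost in both KO lines, with a difference of 0.048 in IL1R1-KO-labelled cells (adjusted p = 0.67 from limma) and -0.012 in IL1RAP-KO (adjusted p = 0.93 from limma). That scaling moved the median of all genes in these comparisons by 0.39 and 0.33. In IL1R1-KO-labelled cells the fall also missed the threshold at -0.40 with TPM as deposited (adjusted p = 0.05 from limma) and at -0.27 with IL1R1-KO RT replicate 1 left out (adjusted p = 0.076 from limma), and in IL1RAP-KO at -0.34 with IL1RAP-KO replicate 2 left out (adjusted p = 0.067 from limma). The response differed from that of WT by 0.37 (95% interval 0.05 to 0.70) and 0.38 (0.06 to 0.71), with adjusted p = 0.23 and 0.22 from limma. Under nuclear protein-coding scaling these differences were 0.73 and 0.67 (adjusted p = 0.013 and 0.033 from limma).

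EPGN, the second most abundant ligand, was called with RT in the IL1R1-KO-labelled cells. Its levels were 95.3 and 110 scaled TPM in WT, 106 and 81.6 in IL1R1-KO-labelled cells, and 116 and 101 in IL1RAP-KO. After RT they were 95 and 114, 173 and 226, and 126 and 144. The WT libraries overlapped between treatments, while those of the IL1R1-KO-labelled cells lay far apart. The log2 difference was 0.02 in WT (SE 0.17, 95% interval -0.35 to 0.39, adjusted p = 0.94 from limma). It was 1.08 in IL1R1-KO-labelled cells (adjusted p = 5e-04 from limma) and 0.31 in IL1RAP-KO (adjusted p = 0.15 from limma). The rise in IL1R1-KO-labelled cells fell short of 2-fold without IL1R1-KO replicate 2 (0.90) or IL1R1-KO RT replicate 2 (0.88).

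The EPGN response in IL1R1-KO-labelled cells differed from that in WT by 1.06 (SE 0.24, adjusted p = 0.047 from limma), the single member called for either KO line, where 1.44% and 0.817% of all genes were. This call rests on the choices made. The adjusted p from limma was 0.055 with a pseudocount of 0.1, 0.12 with no filter and 0.065 with the compared libraries alone. It was 0.11, 0.17, 0.11, 0.18, 0.053, 0.056 and 0.14 without WT replicate 1, WT replicate 2, IL1R1-KO replicate 2, WT RT replicate 1, WT RT replicate 2, IL1R1-KO RT replicate 1 and IL1R1-KO RT replicate 2. The difference itself stayed between 0.86 and 1.26 in these fits. After RT, EPGN was higher in IL1R1-KO-labelled cells than in WT RT by 0.92 (adjusted p = 0.0069 from limma, short of 2-fold), and passed 2-fold at 1.04 without WT RT replicate 2 and at 1.11 without IL1R1-KO RT replicate 1. Its adjusted p from limma was 0.073 with WT RT replicate 1 left out, 0.058 with IL1R1-KO RT replicate 2 left out and 0.067 with the compared libraries alone. EPGN in IL1RAP-KO RT differed from WT RT by 0.37 (95% interval -0.00 to 0.74, adjusted p = 0.16 from limma) and from IL1R1-KO RT-labelled cells by -0.55 (adjusted p = 0.21 from limma), so the KO lines were not shown to differ. Under nuclear protein-coding scaling EPGN also passed in IL1RAP-KO, at 0.71 with RT (adjusted p = 0.0053 from limma) and 0.65 against WT RT (adjusted p = 0.018 from limma).

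BTC, the fourth gene of the chromosome 4 group and a ligand of EGFR and ERBB4, was low in every library. Its levels were 2.49 and 1.95 scaled TPM in WT, 1.65 and 0.99 in IL1R1-KO-labelled cells, and 1.85 and 2.43 in IL1RAP-KO. After RT they were 3.45 and 2.83, 4 and 3.61, and 3.97 and 4.22. Irradiated libraries lay above untreated ones in each genotype. The log2 difference was 0.36 in WT (SE 0.19, adjusted p = 0.16 from limma), 1.07 in IL1R1-KO-labelled cells (adjusted p = 0.0014 from limma) and 0.71 in IL1RAP-KO (adjusted p = 0.013 from limma, short of 2-fold). The rise in IL1R1-KO-labelled cells was 0.86 without IL1R1-KO replicate 2, the lowest library. In IL1RAP-KO the adjusted p from limma was 0.11 with TPM as deposited, 0.055 with no filter, 0.094 with IL1RAP-KO replicate 1 left out and 0.055 with IL1RAP-KO RT replicate 2 left out. The 95% interval in WT ran from -0.07 to 0.80.

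TGFA, a ligand of EGFR made by many epithelia, stayed between 15 and 20.3 scaled TPM in all 12 libraries, the narrowest range of the 10 genes. Its log2 difference with RT was 0.01 in WT (95% interval -0.21 to 0.23), 0.31 in IL1R1-KO-labelled cells (SE 0.10, adjusted p = 0.026 from limma, short of 2-fold) and -0.13 in IL1RAP-KO (-0.35 to 0.09). The value in IL1R1-KO-labelled cells was 0.76 under nuclear protein-coding scaling (adjusted p = 0.00017 from limma) and missed the threshold with TPM as deposited (0.33, adjusted p = 0.08 from limma). It also missed it with no filter and with the compared libraries alone (adjusted p = 0.077 and 0.075 from limma), and when IL1R1-KO replicate 1 or either IL1R1-KO RT replicate was left out (adjusted p = 0.17, 0.089 and 0.089 from limma). In IL1RAP-KO, TGFA passed as lower with TPM as deposited (-0.46, adjusted p = 0.02 from limma). Under nuclear protein-coding scaling the TGFA response in IL1R1-KO-labelled cells differed from that in WT by 0.64 (adjusted p = 0.027 from limma). NRG1, a ligand of ERBB3, lay between 0.69 and 2.72 scaled TPM, with both extremes after RT, and passed in no comparison of the reported fit. Its log2 differences with RT were -0.15, 0.55 and 0.47 (SE 0.27, adjusted p = 0.69, 0.11 and 0.17 from limma), with intervals up to 1.14 and 1.07 in the KO lines, so a change was neither shown nor bounded below 2-fold. Under nuclear protein-coding scaling the KO lines reached 0.85 and 0.71 (adjusted p = 0.022 and 0.047 from limma), and IL1R1-KO-labelled cells 0.87 with IL1R1-KO RT replicate 1 left out (adjusted p = 0.044 from limma).

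Among the receptors, EGFR rose with RT in all 3 genotypes in the reported fit, by less than 2-fold, and with TPM as deposited passed in IL1R1-KO-labelled cells alone. Its levels were 80.2 and 85.5 scaled TPM in WT, 67.6 and 81.1 in IL1R1-KO-labelled cells, and 80.6 and 80.0 in IL1RAP-KO. After RT they were 103 and 119, 120 and 123, and 118 and 123, above every untreated library. The log2 difference was 0.41 in WT, 0.70 in IL1R1-KO-labelled cells and 0.58 in IL1RAP-KO (SE 0.10, adjusted p = 0.0078, 0.00029 and 0.00092 from limma). The rise depended on scaling in part. With TPM as deposited it was 0.15 in WT (adjusted p = 0.43 from limma) and 0.23 in IL1RAP-KO (adjusted p = 0.2 from limma), and under nuclear protein-coding scaling it reached 1.17 in IL1R1-KO-labelled cells. In WT it also missed the threshold with WT replicate 1 left out (0.37, adjusted p = 0.059 from limma) or WT RT replicate 2 left out (0.31, adjusted p = 0.068 from limma). The KO lines did not pass against WT at either treatment, with differences of 0.13 and 0.13 after RT (95% intervals -0.09 to 0.36 and -0.10 to 0.35). Under nuclear protein-coding scaling these were 0.49 and 0.41 (adjusted p = 0.011 and 0.023 from limma). The EGFR response in IL1R1-KO-labelled cells then differed from that in WT by 0.65 (adjusted p = 0.037 from limma).

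ERBB2 and ERBB3 passed in no comparison of the reported fit. ERBB2, the partner receptor without a ligand, lay between 15.4 and 25.2 scaled TPM, both in untreated libraries. Its log2 differences with RT were -0.14, 0.29 and -0.03 (SE 0.19, adjusted p = 0.57, 0.23 and 0.92 from limma), and the second was 0.75 under nuclear protein-coding scaling (adjusted p = 0.0091 from limma) and 0.56 with IL1R1-KO replicate 2 left out (adjusted p = 0.043 from limma). ERBB3, the neuregulin receptor, lay between 3.51 and 5.14 in untreated libraries, and partners differed most after RT, with 5.96 and 10.2 scaled TPM in IL1R1-KO RT-labelled cells and 3.87 and 11.2 in IL1RAP-KO RT. Its log2 differences with RT were 0.13, 0.81 and 0.75 (SE 0.39, adjusted p = 0.82, 0.11 and 0.14 from limma), whose intervals reach from below 0 to 1.0, 1.68 and 1.62, so a rise of over 2-fold was within the interval in both KO lines. With IL1RAP-KO RT replicate 1 left out, ERBB3 was called in IL1RAP-KO cells (1.41, adjusted p = 0.0053 from limma), which leaves the single high library there, and in both KO lines when scaled to nuclear protein-coding genes (1.22 and 1.08).

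The summed mRNA of the 6 EGFR ligands measured here (AREG, EPGN, HBEGF, TGFA, EREG and BTC) changed its makeup with RT in every genotype. In the reported scaling the sum itself fell in WT and, by less, in IL1RAP-KO. It was not computed under other scalings. Nuclear protein-coding scaling moved the median of all genes with RT in IL1RAP-KO by 0.33. The AREG difference there was then -0.012, so the fall of the sum in IL1RAP-KO is not shown apart from the scaling. The sum lay between 481 and 576 scaled TPM in untreated libraries and between 440 and 590 after RT. In WT it was 563 and 576 untreated and 440 and 440 after RT. In IL1R1-KO-labelled cells it was 499 and 481, then 481 and 590, and in IL1RAP-KO 488 and 509, then 461 and 464. AREG made up 70.3% to 77.8% of it untreated and 51.5% to 61.4% after RT. HBEGF went from 0.988% to 2.23% up to 12% and 13.7% in WT RT and to between 5.18% and 7.16% in the KO lines after RT, so all 4 irradiated KO libraries lay below both WT RT libraries. EPGN made up 16.9% to 23.8% untreated, 21.6% and 25.9% in WT RT, 35.9% and 38.3% in IL1R1-KO RT-labelled cells, and 27.2% and 31.1% in IL1RAP-KO RT, so all 4 irradiated KO libraries lay above every other library. Divided by EGFR, the sum was 5.93 to 7.37 untreated and 3.71 to 4.8 after RT, without overlap. These shares are descriptions of mRNA, with no test, and say nothing of ligand released.

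**Figure D3:**
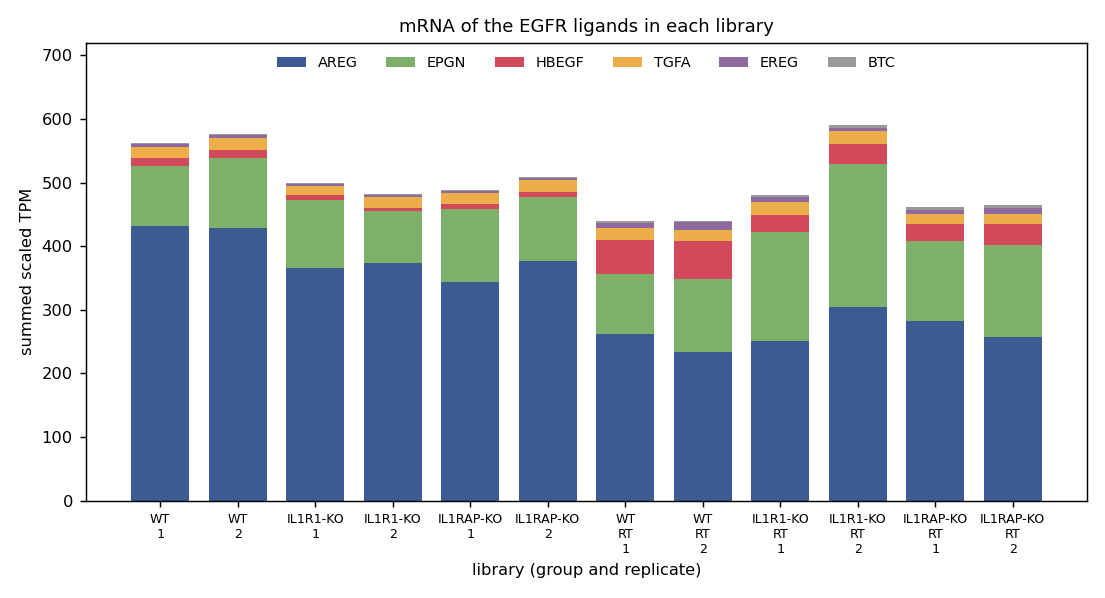
Summed scaled TPM of the 6 EGFR ligands (vertical axis, from 0) in each of the 12 libraries, stacked by ligand. The AREG segment is the tallest in every library (234 to 431). The HBEGF segment is thickest in the WT RT libraries (52.9 and 60.1) and the EPGN segment in the IL1R1-KO RT libraries (173 and 226).

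Between untreated KO and WT cells, none of the 10 genes was called in either line by limma, where 0.137% and 0.0915% of all genes were. At an unadjusted p under 0.05 from limma, 3 of the 10 differed in IL1R1-KO-labelled cells (HBEGF, EREG and BTC) and 2 in IL1RAP-KO (HBEGF and AREG), all lower. At that unadjusted p, 5.27% and 4.02% of all genes differed. After RT, none was called in either KO line against WT RT, where 3.06% and 2.89% of all genes were, with 4 and 1 of the 10 at an unadjusted p under 0.05, as 26.5% and 31.1% of all genes were. With an adjusted p alone, HBEGF and EPGN passed in IL1R1-KO-labelled cells and HBEGF in IL1RAP-KO, where 12.2% and 14.8% of all genes did. Under nuclear protein-coding scaling, AREG (0.51 and 0.41) and EGFR (0.49 and 0.41) also passed as higher in these KO lines after RT. So did TGFA (0.49) and NRG1 (0.85) in IL1R1-KO-labelled cells and EPGN (0.65) in IL1RAP-KO. That scaling moved the median of all genes in these comparisons by 0.31 and 0.24. Between the irradiated KO lines none of the 10 was called, with 2 at an unadjusted p under 0.05 (TGFA and EPGN), as 15.2% of all genes were, where 0.0719% were called. Both KO lines were compared with the same WT libraries, so their differences from WT are not independent of each other.

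**Figure D4:**
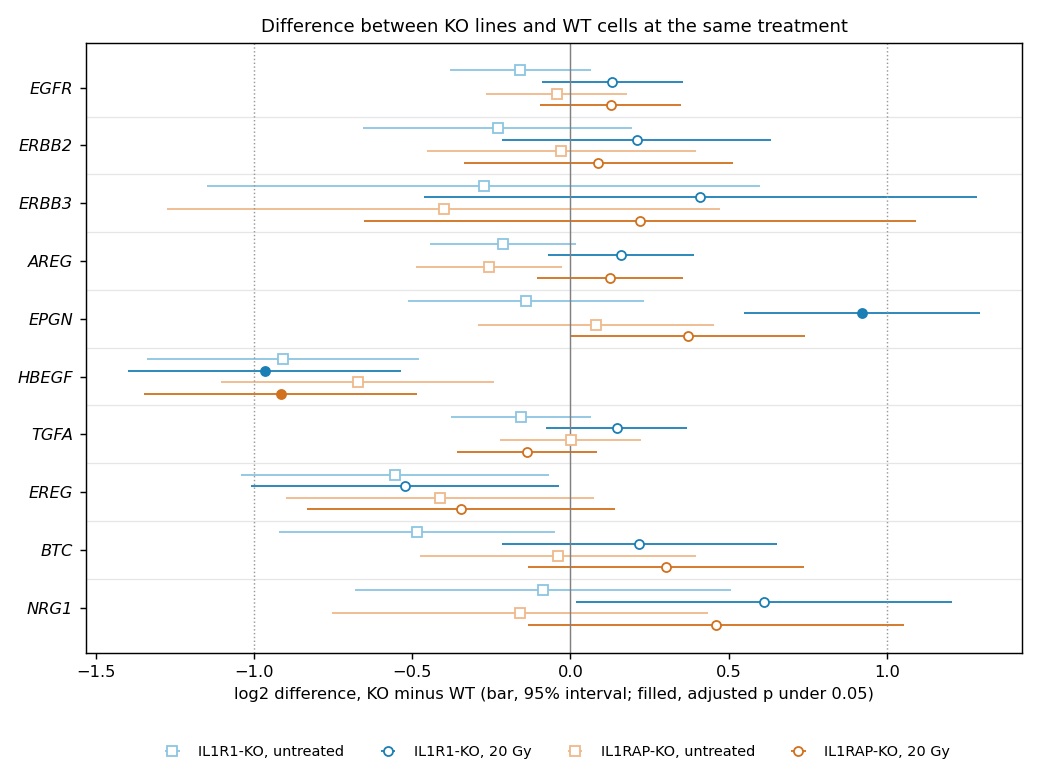
Log2 difference between each KO line and WT cells at the same treatment (horizontal axis) for the 10 genes; squares are untreated cells, circles are cells after 20 Gy, bars are 95% intervals, filled symbols have an adjusted p under 0.05 from limma and dotted lines mark 2-fold. The filled symbols are HBEGF in both irradiated KO lines (-0.97 and -0.92) and EPGN in IL1R1-KO RT-labelled cells (0.92).

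Other genes of the pathway were taken from 5 lists. With RT, 7.05%, 8.16% and 8.21% of all genes were called higher in WT, IL1R1-KO-labelled cells and IL1RAP-KO. Of the 15303 genes tested, 942, 1248 and 1405 were called lower. The medians of all genes were 0.00, 0.01 and 0.00, to be set beside the median of each list. Of 5 further receptors and ligands (ERBB4, EGF, NRG2, NRG3 and NRG4), ERBB4, EGF and NRG3 stayed under the filter, with a highest deposited TPM of 0.32, 0.58 and 0.09. NRG4, a ligand of ERBB4, fell with RT by 1.12 in WT and by 1.10 in IL1R1-KO-labelled cells (SE 0.34, adjusted p = 0.023 and 0.022 from limma). NRG2, another neuregulin, was lower after RT in both KO lines than in WT RT (-1.05 and -1.21, SE 0.20, adjusted p = 0.0091 and 0.006 from limma), with group means of 2.3, 1.93 and 5.83 scaled TPM. The median with RT was -0.18, -0.48 and -0.22 in the 3 genotypes, over only 2 tested genes. In WT these moved in opposite directions. Mean NRG2 went from 2.99 to 5.83 scaled TPM there and passed the adjusted p as higher, without a call. The NRG2 call in IL1R1-KO-labelled cells was lost both with TPM as deposited and under nuclear protein-coding scaling.

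Of 6 genes of ligand shedding, 0, 1 and 1 were called higher with RT in WT, IL1R1-KO-labelled cells and IL1RAP-KO, and 0 lower. The called gene was TIMP3, an inhibitor of the ligand-releasing protease ADAM17, at 1.82 and 1.59 in the KO lines (SE 0.17, adjusted p = 1.8e-05 and 4.6e-05 from limma) beside 0.62 in WT (adjusted p = 0.014 from limma). TIMP3 was higher in IL1R1-KO RT-labelled cells than in WT RT by 1.14 (adjusted p = 0.0025 from limma), and its response differed from that in WT by 1.21 (adjusted p = 0.031 from limma). Its mean was also higher in IL1RAP-KO RT, at 140 scaled TPM beside 157 in IL1R1-KO RT-labelled cells and 72.1 in WT RT. For the response in IL1RAP-KO against that in WT, 0 genes of the list passed the adjusted p. ADAM9 fell by 0.77, 0.77 and 0.70 (short of 2-fold; over 2-fold in WT and IL1RAP-KO with TPM as deposited), and ADAM10 was at 95.1 to 130 scaled TPM. ADAM17 itself lay between 18 and 27.4. The median of the list with RT was 0.06, -0.07 and -0.03.

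Of 23 adaptor, RAS-ERK and PI3K relay genes, 1, 0 and 2 were called higher with RT and 0 lower. PIK3R1, a regulatory subunit of PI3K, rose by 1.19 in WT and 1.58 in IL1RAP-KO (SE 0.25, adjusted p = 0.0038 and 0.00056 from limma), and GAB1, a docking protein that links receptors to PI3K, by 1.06 in IL1RAP-KO (SE 0.20, adjusted p = 0.0018 from limma). Both also had higher means after RT in the genotypes without a call. Mean PIK3R1 went from 65.3 to 115 scaled TPM in IL1R1-KO-labelled cells. Mean GAB1 went from 6.13 to 11.8 in WT and from 6.21 to 10.1 in IL1R1-KO-labelled cells. Among those not called with the highest levels, SHC1 lay between 290 and 433 scaled TPM. The PIK3R1 call in WT was lost with TPM as deposited. That scaling moved the median of all genes with RT in IL1RAP-KO by -0.28, which would bring the GAB1 rise of 1.06 under 2-fold. The median of the list was -0.12, -0.18 and -0.09.

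Of 17 feedback inhibitors of the receptors and of ERK, 0, 1 and 0 were called higher with RT and 1, 1 and 1 lower. CBLC, a ubiquitin ligase of the CBL family that acts on EGFR, fell by 1.55, 1.11 and 1.80 (SE 0.21, adjusted p = 0.00028, 0.0018 and 8.6e-05 from limma). SPRY2, an inhibitor of RAS-ERK signaling, rose by 1.02 in IL1R1-KO-labelled cells (SE 0.14, adjusted p = 0.00027 from limma), and its response there differed from that in WT by 1.21 (adjusted p = 0.015 from limma). Without a call, mean SPRY2 went from 23.8 to 32 scaled TPM in IL1RAP-KO and from 23 to 20 in WT. ERRFI1, which binds and inhibits the EGFR kinase, rose by 0.75, 0.90 and 0.93, short of 2-fold (SE 0.12, adjusted p = 0.00065, 0.00015 and 0.00013 from limma). The median of the list was -0.02, -0.11 and -0.08.

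Of 12 transcripts driven by ERK, 1, 0 and 1 were called higher with RT and 2, 2 and 2 lower. The transcription factors EGR1 and ETV4 fell in every genotype. EGR1 fell by 1.35, 1.23 and 1.25 (SE 0.13) and ETV4 by 1.31, 1.13 and 1.66 (SE 0.11), with adjusted p-values from limma of at most 5.4e-05. Scaled to nuclear protein-coding genes, neither was called in IL1R1-KO-labelled cells. That scaling also moved the median of all genes with RT in IL1RAP-KO by 0.33. A shift of that size would bring the EGR1 fall of 1.25 there under 2-fold. PLAUR, the urokinase receptor, rose by 1.03 in WT and 1.04 in IL1RAP-KO and by 0.99, short of 2-fold, in IL1R1-KO-labelled cells (SE 0.13, adjusted p = 0.00016, 0.00012 and 0.00016 from limma). With TPM as deposited, the median of all genes with RT moved by -0.22 in WT and -0.28 in IL1RAP-KO. Shifts of that size would bring the PLAUR rises in WT and IL1RAP-KO under 2-fold. FOS was lower after RT in both KO lines than in WT RT by 1.22 and 1.31 (SE 0.19, adjusted p = 0.0034 and 0.0032 from limma). The FOS call in IL1R1-KO-labelled cells was lost both with TPM as deposited and under nuclear protein-coding scaling. The median of the list was -0.29, -0.16 and -0.57 with RT.

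For the 5 members with the widest range, the genes of most similar pattern were found by Pearson's r over the 12 libraries, which share treatment and genotype. This is a description over libraries in 6 groups, with no p. For HBEGF they were GSDMC (r = 0.983), CYLD (0.979) and BIRC3 (0.979). For EREG they were NCOA7 (0.976), FGF2 (0.965) and FCHO2 (0.965). For EPGN they were NXNL2 (0.938), SERPINB2 (0.926) and COBL (0.924). For BTC they were TRAPPC6A (0.945), AL353708.3 (0.94) and DDB2 (0.937). For ERBB3, whose partners differed most, the highest were PCDHB9 (0.875), FAM120AOS (0.872) and LINC00910 (0.853).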

How the data were processed

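Total RNA of 12 libraries was depleted of ribosomal RNA and sequenced as stranded libraries. The authors trimmed reads with cutadapt 1.15, aligned them with STAR 2.5.3a to GRCh38 and counted genes with HTSeq. The deposited values are TPM in steps of 0.01. The gene lengths used are not given in the sources used here, and TPM keep no depth, so depth and counting error are unknown.

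TPM were divided by unweighted trimmed mean factors (trimming 30% of M values and 5% of A values from either end). Genes at a TPM of 1 or more in 2 libraries were kept, 1 was added before log2, and 6 group means were fitted with limma 3.58.1 in R 4.3.3 (with a variance trend; residual degrees of freedom 6, prior 3.73). The design had named a count model if counts were held. Deviations of same-numbered libraries correlated at -0.061 to 0.095 over pairs of groups, so replicate numbers do not pair them. The fitting was tested on simulated data. Promoters were searched in Python 3.11.15, and figures drawn with matplotlib 3.10.9.

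The members, gene lists, scaling and tests were chosen with earlier results of these data known. All 10 members are named. Of each list the text names up to 3 called genes of smallest adjusted p per main comparison and up to 2 uncalled ones of highest mean. ADAM17 was added after its values were seen, and the NF-κB letters were narrowed after their matches were seen. Other scalings, pseudocounts, filters, thresholds, a replicate block and leaving out each library were tried.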

Additional observations from a re-analysis of the deposited data

Results flagged for a closer look

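The difference between the response of EPGN to RT in IL1R1-KO-labelled cells and in WT was 1.06 on the log2 scale (SE 0.24, adjusted p = 0.047 from limma), so a test of the difference between genotypes passed its threshold. EPGN was higher after RT in both libraries of the IL1R1-KO-labelled cells (173 and 226 scaled TPM, against 106 and 81.6 untreated), while the WT libraries overlapped between treatments. The call was lost under most of the alternatives named for it.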

How the results depend on the processing

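Of the counts of members called, 110 values under the alternatives stayed within 1.5 times the reported count and 28 did not. Many of the reported counts were 0, where a factor of 1.5 has no meaning. With an adjusted p alone, the counts were 4, 7 and 5 for RT in WT, IL1R1-KO-labelled cells and IL1RAP-KO, and 2 and 1 for those KO lines against WT RT. Leaving out each library in turn gave 1 to 2 for WT (1 without WT RT replicate 2), 2 to 4 for IL1R1-KO-labelled cells, 1 to 3 for IL1RAP-KO (3, with ERBB3, without IL1RAP-KO RT replicate 1), and 0 to 1 for each KO line against WT RT and for the interaction of IL1R1-KO and RT. With TPM as deposited the count for RT in IL1RAP-KO was 1 (HBEGF), and 1 in each KO line against WT RT (EPGN and HBEGF). Under nuclear protein-coding scaling the count was 4 for RT in IL1RAP-KO (ERBB3, EREG, HBEGF and BTC) and 1 for IL1R1-KO RT against WT RT (EPGN). For RT in IL1R1-KO-labelled cells that scaling added EGFR (1.17) and ERBB3 (1.22) to the members called. The interaction count of 1 (EPGN) became 0 with a pseudocount of 0.1, with no filter, with the compared libraries alone and with the replicate block (adjusted p = 0.059 from limma), and the block moved no other count of members by over 1.5 times. Of 100 pairs of a member and a comparison, 20 passed the adjusted p in the reported fit. Among these, 1 of 242 values under the alternatives changed sign, AREG with RT in IL1R1-KO-labelled cells (0.048 under nuclear protein-coding scaling), and 39 values, of 10 pairs, lost the adjusted p. Over all pairs, 75 of 1260 values had the opposite sign, in 35 pairs, and 21 values gained the adjusted p. The cause was not tested. Scaling moved the median of all genes by -0.22 and -0.28 for RT in WT and IL1RAP-KO with TPM as deposited, and by 0.39 and 0.33 for RT in the KO lines with nuclear protein-coding scaling. Depth is unknown, so low genes such as NRG1 and BTC cannot be given a counting error.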
